A study of Rattus norvegicus with 9 samples.

Results

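The genes of the intrinsic and extrinsic arms of apoptosis followed in the left ventricle of rats were Bax, Bak1, Bcl2, Bcl2l1, Mcl1, Bid, Casp8, Casp9 and Apaf1. They were taken by gene name, and 8 of the 9 had a row among the 35843 genes of the FPKM table. Mcl1 was not analysed here. The question the comparisons address is how the mRNA levels of the apoptosis machinery, the Bax to Bcl2 ratio included, differed after infarction and with dapagliflozin (DAPA), an inhibitor of the sodium-glucose co-transporter SGLT2.

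The 9 rats were adult male SD rats (Sprague-Dawley, an outbred stock) sampled at day 28, 3 in each group. In group MI the left anterior descending artery was tied off for good and saline was gavaged daily. The rats of group MI + DAPA (1st d), called treated rats below, had the same ligation and DAPA gavage at 1 mg/kg each day from day 1. Rats of group Sham were operated on without ligation and were given saline. The study's methods say that molecular work drew mainly on the border of the infarct, with scar removed, and on the matching part of the heart in group Sham. For the RNA sequencing they name only the left ventricle, and the labels only the heart, so whether these libraries hold border tissue alone is not given. In such bulk tissue, fewer cells of a type and less RNA per cell cannot be told apart.

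Apoptosis runs along a pair of routes that meet. In the intrinsic route, BH3-only proteins respond to stress, the effectors Bax and Bak1 make pores in the outer mitochondrial membrane, and Bcl2, Bcl2l1 and Mcl1 hold them in check. Cytochrome c that leaves through the pores binds Apaf1, which assembles into the apoptosome and activates caspase-9. In the extrinsic route, death receptors recruit and activate caspase-8, which cuts Bid and so links the routes. Both end in executioner caspases, and much of their control lies in protein location and cleavage, which mRNA levels do not show. Adult cardiomyocytes, which no longer divide, are known for low levels of Apaf1.

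Whole reads could be recovered from the FPKM values of all 18896 genes with values in 4 libraries or more, giving 13602012 to 17212095 reads per rat. Genes of the mitochondrial genome took 61.1% to 66.9% of these reads in group Sham, 7.07% to 19.1% in MI rats and 17.5% to 32% in treated rats. FPKM, fragments per kilobase of gene and per unit of library size, had been scaled by the authors with a denominator in near proportion to a median-of-ratios size factor rather than to all reads. Rescaled to all recovered reads instead, the median of all genes tested moved by 0.92 (log2) between group MI and group Sham, and directions are given on both scales where they differ. All 10 cardiomyocyte markers listed were detected in every library. Their summed FPKM was 2233 in MI replicate 2, against 5916 and 10930 in the other MI rats and 7146 to 10503 in group Sham. The same rat had the highest sum of 8 macrophage markers, 1141 against 589 and 600.4, and results that rest on it are given without it as well.

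The levels of the members, compared per length, had the same order at the top and at the bottom in every group. Bax was the most abundant member at 46.4 ± 7.42 FPKM in group Sham, 25.1 ± 1.3 in MI rats and 28.9 ± 2.42 in treated rats (mean ± SD, n = 3 each). It lay above Bcl2l1 in 3 of 3 rats of each group without overlap. Bcl2l1 and Bak1 came next, and their ranges overlapped in all 3 groups. Bcl2 was the least abundant member in every group, at 0.471 ± 0.172 FPKM in group Sham, 1.45 ± 0.5 in MI rats and 1.20 ± 0.499 in treated rats. Its range did not overlap with that of the next gene above it, Apaf1 in group Sham and in treated rats and Casp9 in group MI. Between these ends, Casp8 lay above Casp9 without overlap in group Sham, while in group MI the neighbours Bid, Casp8, Apaf1 and Casp9 overlapped.

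**Figure D1:**
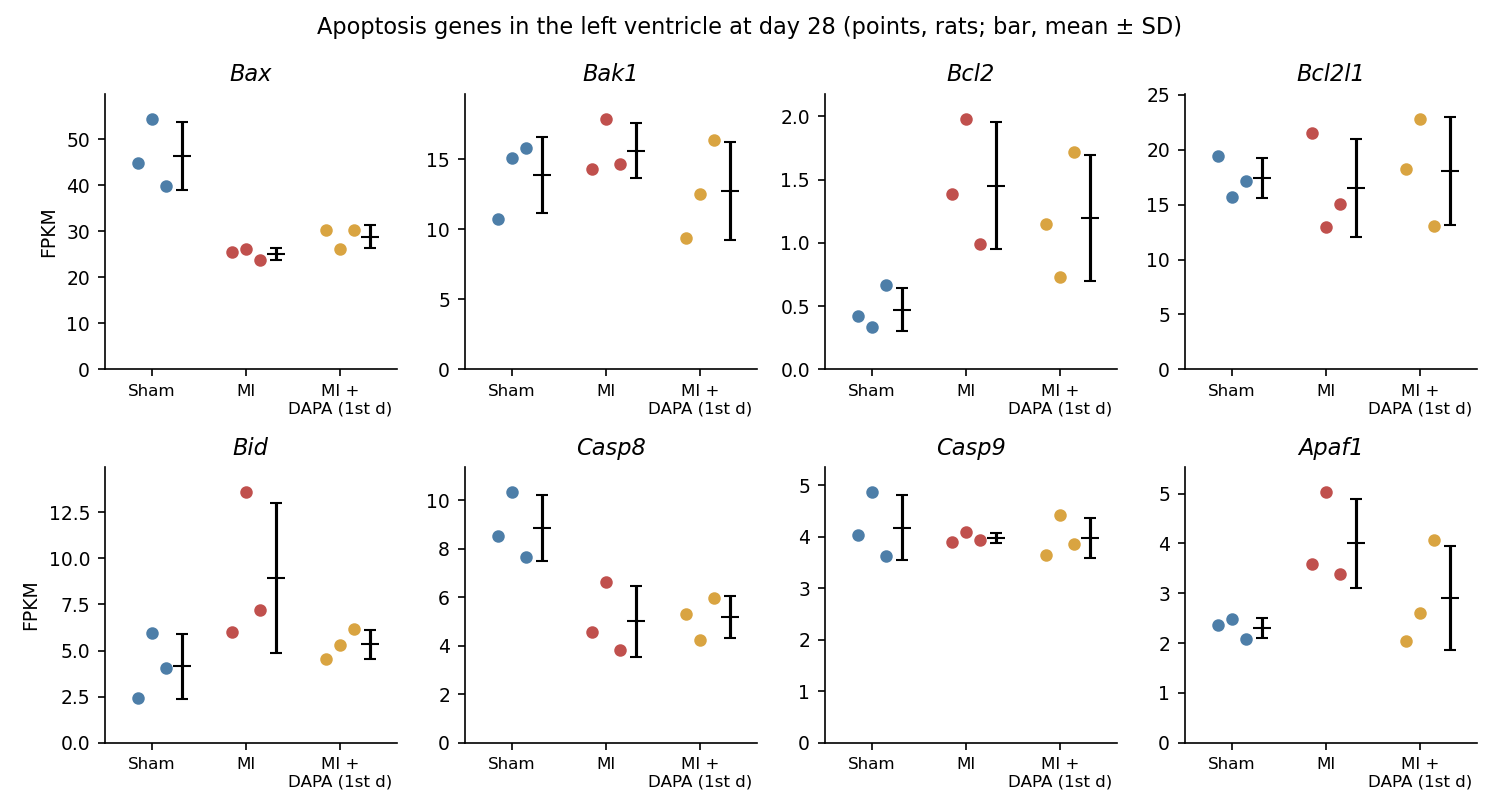
FPKM of the 8 measured members (a panel each, y axis from 0) in the 3 rats of each group (Sham, MI, MI + DAPA (1st d)), with the mean and SD beside the points. The 3 Sham rats sit above all other rats for Bax (39.9 to 54.5) and Casp8 (7.67 to 10.3) and below all others for Bcl2 (0.331 to 0.662).

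Of the effector genes, Bax fell after infarction and Bak1 did not pass the test. Bax (ENSRNOG00000020876) measured 44.9, 54.5 and 39.9 FPKM in the 3 Sham rats, 25.5, 26.2 and 23.7 in the MI rats and 30.3, 26.1 and 30.3 in the MI + DAPA (1st d) rats. Every Sham rat was above every infarcted rat, treated or not, and the MI and treated rats overlapped. Bax fell by 0.85 ± 0.15 (SE) on log2(FPKM + 1) in group MI compared with group Sham (limma, adjusted p = 0.00618), which is 1.83-fold lower on the FPKM themselves. It also fell by 0.66 ± 0.17 in treated rats compared with group Sham (limma, adjusted p = 0.0242). Scaled to all recovered reads, the values became 0.23 and 0.20, neither called, against medians of 0.92 and 0.74 over all genes, so Bax lay below the median gene on both scales. The fall in group MI was called without any one of the 6 rats, at an adjusted p (limma) of 0.0253 at most. The fall in treated rats was lost without Sham replicate 1 or 2 or without treated replicate 1 or 2, at an adjusted p (limma) of 0.0538 to 0.0702.

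Bak1 (ENSRNOG00000000485), the other pore-forming effector, measured 10.8, 15.1 and 15.8 FPKM in group Sham, 14.3, 17.9 and 14.7 in MI rats and 9.39, 12.5 and 16.4 in treated rats. All 3 groups overlapped. Its log2 change was 0.17 ± 0.19 in MI vs. Sham (limma, adjusted p = 0.502) and -0.13 in the treated rats vs. Sham (limma, adjusted p = 0.719). Within each rat, Bax was 2.53 to 4.18 times Bak1 in group Sham, 1.46 to 1.78 times in MI rats and 1.85 to 3.22 times in treated rats. This ratio does not depend on the library scaling, and the Sham and MI rats did not overlap in it. Only the Bax to Bcl2 ratio was set for testing, so the Bax to Bak1 ratio was not tested.

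Bcl2 (ENSRNOG00000002791), the founding anti-apoptotic gene of the family, had the largest fold among the members in MI vs. Sham but rested on few reads. It measured 0.418, 0.331 and 0.662 FPKM in group Sham (9, 7 and 12 reads), 1.38, 1.98 and 0.989 in group MI (55, 72 and 39 reads) and 1.15, 0.726 and 1.72 in treated rats (39, 24 and 64 reads). All infarcted rats lay above all Sham rats. Mean levels on log2 FPKM gave a 3.09-fold higher level in group MI than in group Sham (two-sided exact permutation p = 0.1, the smallest that 3 against 3 can give). Bcl2 did not pass the minimum of 1 FPKM in 3 of the rats in the fits against group Sham, so it has no call there. With no filter, its change in MI vs. Sham was 0.72 on log2(FPKM + 1) (limma, adjusted p = 0.0638). With limma voom on the recovered reads and a minimum of 10 reads in 3 rats, a setting chosen after seeing the data, it was 1.57 ± 0.60 (adjusted p = 0.0755). Treated rats were 2.50-fold above group Sham by the same measure (exact permutation p = 0.1).

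Bcl2l1 (ENSRNOG00000007946), which encodes BCL-XL, was the main measured anti-apoptotic member. It measured 19.4, 15.7 and 17.2 FPKM in group Sham, 21.5, 12.9 and 15.1 in MI rats and 18.3, 22.8 and 13.1 in treated rats. The groups overlapped, and the log2 change was -0.10 ± 0.21 in MI vs. Sham (limma, adjusted p = 0.728) and 0.02 in treated rats vs. Sham (limma, adjusted p = 0.952). The Bcl2l1 level was 25.9 to 47.4 times that of Bcl2 in group Sham, 6.52 to 15.5 times in MI rats and 7.59 to 31.4 times in treated rats. That ratio was not tested either.

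The Bax to Bcl2 ratio was taken within each rat from the FPKM, so it compares the genes per length and is free of library scaling. It was 107, 165 and 60.3 in the 3 Sham rats. In the MI rats it was 18.5, 13.2 and 24.0, and in the MI + DAPA (1st d) rats 26.4, 35.9 and 17.6. Every Sham rat was above every infarcted rat, and the MI and treated rats overlapped. Counting error on the Bax and Bcl2 reads was wide in group Sham, where Bcl2 had few reads. The exact 95% interval of the ratio ran from 79.4 to 411 in replicate 2 and from 34.2 to 118 in replicate 3. The intervals of the Sham rats stayed above those of the MI rats, which ran up to 34.0, but Sham replicates 1 and 3 reached into that of treated replicate 2, 23.9 to 56.5, and Sham replicate 3 also into that of treated replicate 1, 19.1 to 37.4. Intervals cover counting error only, since reads without molecular identifiers are not independent molecules.

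**Figure D2:**
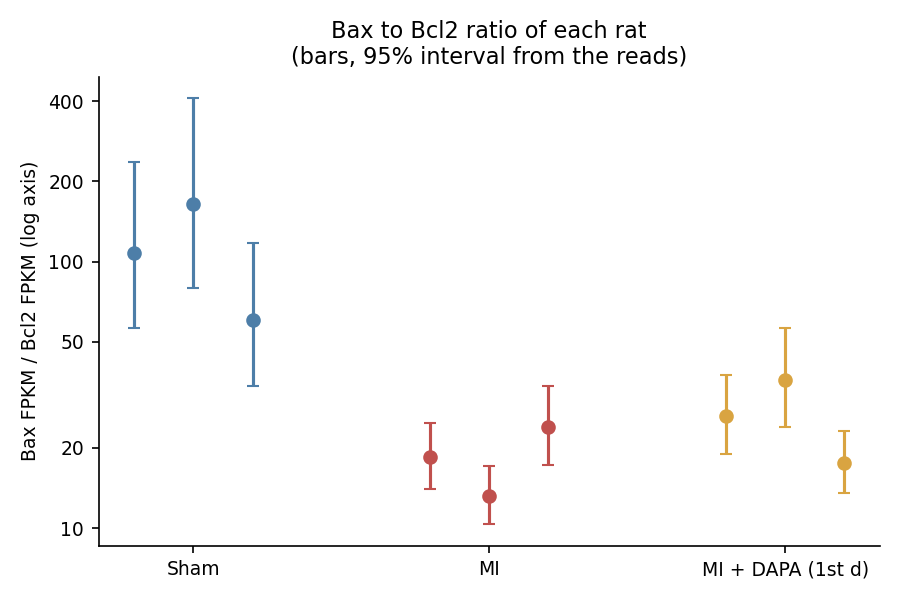
Ratio of Bax FPKM to Bcl2 FPKM in each rat (log axis), with exact 95% binomial intervals from the recovered reads as bars. The Sham rats lie at 60.3 to 165, the MI rats at 13.2 to 24.0 and the MI + DAPA (1st d) rats at 17.6 to 35.9.

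On the log2 scale the ratio averaged 6.67 ± 0.73 in group Sham, 4.17 ± 0.43 in MI rats and 4.67 ± 0.52 in treated rats (SD, n = 3 each). The difference of group MI from group Sham was -2.50 ± 0.49 (SE), a 5.67-fold lower ratio (two-sided exact permutation p = 0.1, the smallest possible). Behind that difference, log2 FPKM was 1.63 higher for Bcl2 and differed by -0.87 for Bax. The difference of treated from Sham rats was -2.0 ± 0.51 (exact permutation p = 0.1). The treated rats were 0.50 ± 0.39 above the MI rats (exact permutation p = 0.3), with treated replicate 3 below 2 of the MI rats. Without MI replicate 2, the rat with the lowest cardiomyocyte marker sum, the difference between treated and MI rats was 0.28 and that between MI and Sham rats -2.28. With Bak1 added to Bax and Bcl2l1 to Bcl2, the ratio of the sums was 2.81 to 4.34 in group Sham, 1.74 to 2.96 in MI rats and 1.64 to 3.15 in treated rats, and the groups overlapped. This sum ratio was chosen after its values were seen and was not tested.

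Bid, the link from caspase-8 to the mitochondrion, was higher in each MI rat than in each Sham rat. Bid (ENSRNOG00000012439) measured 2.45, 5.96 and 4.05 FPKM in group Sham, 6.0, 13.6 and 7.2 in MI rats and 4.56, 5.28 and 6.16 in treated rats. The gap between the groups was narrow, since the lowest MI rat stood at 6.0 and the highest Sham rat at 5.96. The change was 0.93 ± 0.35 in MI vs. Sham and missed the threshold (limma, adjusted p = 0.0749). MI replicate 2 held the highest value, and without that rat the change was 0.61 (limma, adjusted p = 0.187). With all 9 rats in 1 fit it was called at an adjusted p (limma) of 0.0426.

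Casp8 (ENSRNOG00000012331), the initiator caspase of the death receptors, measured 8.53, 10.3 and 7.67 FPKM in group Sham, 4.54, 6.62 and 3.84 in MI rats and 5.32, 4.24 and 5.95 in treated rats. The Sham rats were above all infarcted rats. Casp8 fell by 0.73 ± 0.22 in MI vs. Sham (limma, adjusted p = 0.0331) and by 0.68 ± 0.19 in treated rats vs. Sham (limma, adjusted p = 0.0337), or 1.80-fold and 1.72-fold on the FPKM. Scaled to all recovered reads the values were 0.23 and 0.09, not called and again below the median gene. Among the 6 fits of MI vs. Sham that left out 1 rat, the call held only without MI replicate 2 (limma, adjusted p = 0.0181) and was otherwise lost at 0.0542 to 0.0993. In treated rats vs. Sham it likewise held only without treated replicate 3 (limma, adjusted p = 0.0493) and was otherwise lost at 0.0554 to 0.0902.

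Of the apoptosome genes, Apaf1 rose after infarction and Casp9 did not pass the test. Casp9 (ENSRNOG00000012944), the initiator caspase of the intrinsic route, measured 4.04, 4.87 and 3.63 FPKM in group Sham, 3.91, 4.09 and 3.94 in MI rats and 3.66, 4.42 and 3.87 in treated rats. Its group means were 4.18, 3.98 and 3.98 FPKM, with a log2 change of -0.05 ± 0.17 in MI vs. Sham (limma, adjusted p = 0.833). Apaf1 (ENSRNOG00000008022), the scaffold that caspase-9 binds, measured 2.37, 2.48 and 2.09 FPKM in group Sham, 3.60, 5.03 and 3.38 in MI rats and 2.05, 2.61 and 4.06 in treated rats. Every MI rat was above every Sham rat, while the treated rats spanned both groups. Apaf1 rose by 0.58 ± 0.19 in MI vs. Sham (limma, adjusted p = 0.0478), a 1.71-fold higher level on the FPKM. That call was lost without any one of the 6 rats, at an adjusted p (limma) of 0.0704 to 0.153, and with all 9 rats in 1 fit at 0.0607. Without MI replicate 2 the change was 0.44. The treated rats differed from Sham rats by 0.21 (limma, adjusted p = 0.547).

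Counted over the 7 members tested in MI vs. Sham, 1 was called higher and 2 lower at an adjusted p under 0.05. Of all 13485 genes tested, 19.5% were called higher and 19.5% lower. The groups did not overlap for 4 of the 7 members, against 54.6% of all genes tested. With 7 genes, these counts are near the shares of all genes and are no result about the members. In MI + DAPA (1st d) vs. Sham, 0 of 7 members were called higher and 2 lower (limma, with the same 2 at an unadjusted p under 0.05 and 0 higher and 2 lower by limma voom), against 14.5% and 14.1% of 13359 genes. The groups did not overlap for 2 of the 7, against 46.5% of all genes. The comparisons with group Sham share the Sham rats.

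**Figure D3:**
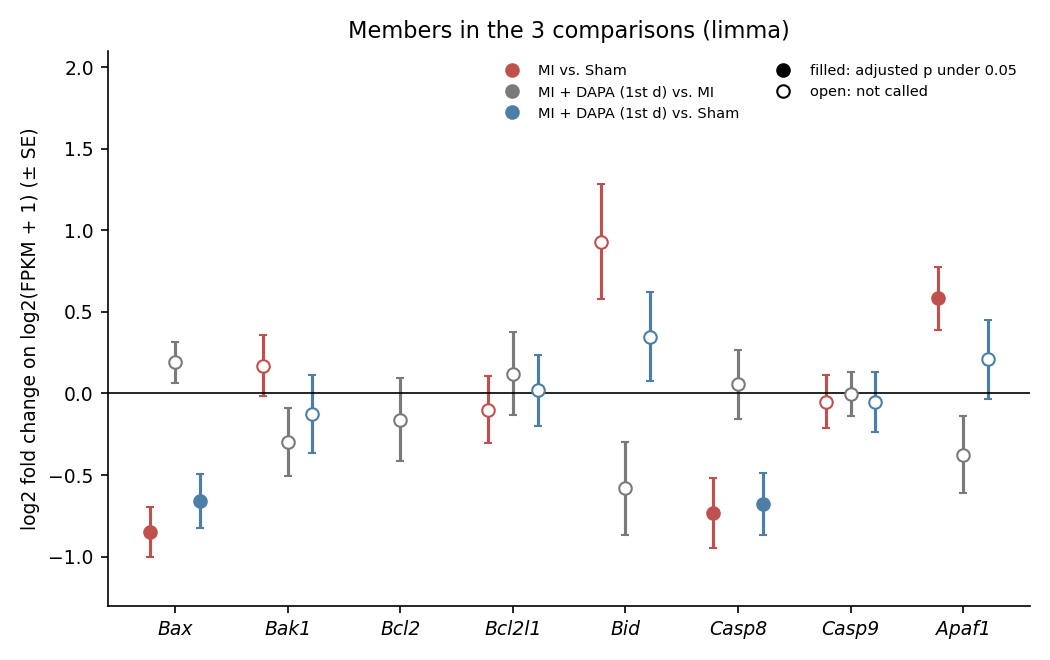
Log2 fold change ± SE of each member on log2(FPKM + 1) in the 3 comparisons (limma), filled where the adjusted p was under 0.05. Bax and Casp8 lie below 0 against group Sham in both comparisons (-0.85 and -0.66, -0.73 and -0.68), Apaf1 is filled only in MI vs. Sham at 0.58, and no member is filled in MI + DAPA (1st d) vs. MI. Bcl2 has a point only in that last comparison.

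No member differed between treated and untreated infarcted rats beyond the spread between rats. None of the 8 members tested was called in MI + DAPA (1st d) vs. MI, by limma on log2(FPKM + 1) or by limma voom, and 0 of 8 had an unadjusted p under 0.05. Over all 13251 genes, 0% were called at an adjusted p under 0.05, while 4.59% were higher and 3.9% lower at an unadjusted p under 0.05. The groups overlapped for all 8 members, and did not for 13.8% of all genes. The log2 changes ran from -0.58 ± 0.28 for Bid to 0.19 ± 0.13 for Bax (limma, adjusted p = 0.558 and 0.617). Bak1 changed by -0.30 and Apaf1 by -0.37, Bcl2 by -0.16, Bcl2l1 by 0.12 and Casp8 by 0.06, and Casp9 by less than 0.01 in size. Without MI replicate 2 the value was -0.27 for Bid, -0.23 for Apaf1, 0.24 for Casp8, -0.01 for Bcl2 and -0.03 for Bcl2l1, and none was called. Without treated replicate 3 it was -0.67 for Bid, -0.58 for Apaf1 and -0.48 for Bak1, each without overlap. In that fit Bcl2 was at -0.33, Bcl2l1 at 0.32, Bax at 0.16, Casp8 at -0.03 and Casp9 at 0.01. Apaf1 and Bak1 had an unadjusted p (limma) of 0.0364 and 0.0436 there, and again none was called. Of all 12942 genes in that fit, 1067 were higher and 808 lower at an unadjusted p under 0.05. The share of all genes without overlap was not counted for that fit, so nothing particular to the members is read from it. The MI rats enter both this comparison and MI vs. Sham.

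**Figure D4:**
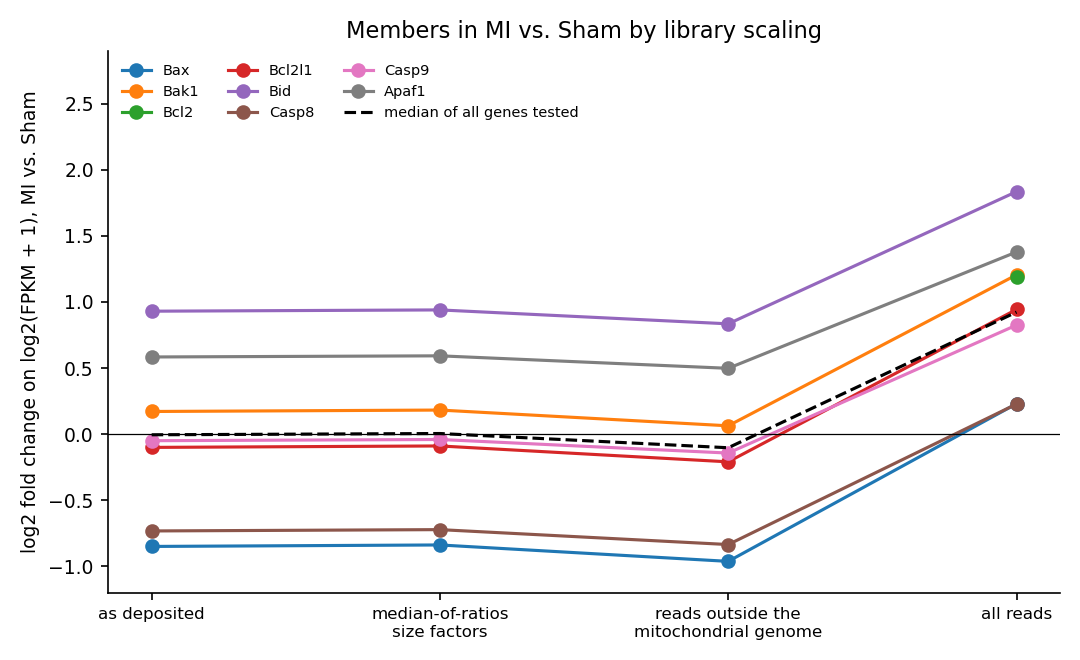
Log2 fold change of the members in MI vs. Sham (y axis, log2(FPKM + 1)) under 4 library scalings (x axis), with the median of all genes tested as the dashed line. All members shift with the median gene, which moves from -0.01 as deposited to 0.92 on all recovered reads, where Bax and Casp8 reach 0.23 and are still the lowest of the members. Bcl2 passed the filter only in the last scaling.

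Cell-type marker levels moved with the groups and are given beside these results. The sum of the 4 endothelial markers with a row, of 5 listed, was 268 to 418 FPKM in group Sham, 124 to 152 in MI rats and 149 to 189 in treated rats, in the order of Bax and Casp8. The sum of 8 macrophage markers was 65.9 to 161, 589 to 1141 and 320 to 680, and that of 8 fibroblast markers 407 to 638, 2268 to 4171 and 1809 to 2423, in the order of the Apaf1 means. The 6 T cell markers summed to 11.2 to 21.9, 60.0 to 249 and 32.1 to 63.7, with Cd3d at 0 in 1 Sham rat. The 5 B and plasma cell markers with a row, of 6 listed, reached 3108 FPKM in MI replicate 2 and 25.3 and 542 in the other MI rats. The mean sums of the T cell and of the B and plasma cell markers were also in the order of the Apaf1 means. The Bid and Bcl2 means had the same order, and Apaf1, Bid and Bcl2 were each highest in MI replicate 2. Smooth muscle markers (4 of 4) summed to 292 to 1357, 482 to 664 and 434 to 688. Their means were 926, 560 and 561, highest in group Sham and nearly equal in MI and treated rats. Sham replicate 2, the rat with the highest Bax and Casp8, had the lowest smooth muscle sum of all rats, 292. It also had the lowest endothelial sum of group Sham, 268. Cardiomyocyte markers (10 of 10) summed to 7146 to 10503, 2233 to 10930 and 8501 to 17824, with means of 8865, 6360 and 14129, in neither order. Adipocyte markers (4 listed) stayed at or below 9.37, with Adipoq, Plin1 and Cidec at 0 in every Sham rat. The part of these cell types in the members' levels was not tested.

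The other genes of the pathway were taken from a list of 63 genes in 9 role groups, members included, of which 58 had a row. Of the 53 tested in MI vs. Sham, 8 were called higher, 10 lower and 35 were not called (limma), with a median log2 change of 0.03 against -0.01 over all genes tested. Beside the 19.5% of all genes called in each direction, these counts are no result about the list. The counts by role below rest on fewer genes and stand beside the same 19.5%, so they are no result about a role either. On the scale of all recovered reads, all 8 stayed above 0 and above the median gene. Of the 10 called lower, 1 stayed below 0 on that scale, Tnfrsf25, while all 10 stayed below the median gene.

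Among the effectors, Bok, a relative of Bax and Bak1, rose from 9.53 ± 2.80 FPKM in group Sham to 20.8 ± 2.84 in group MI, a log2 change of 1.07 (limma, adjusted p = 0.0103). It was 31.1 ± 15.1 in treated rats, called against group Sham at 1.54 (limma, adjusted p = 0.0156). Of the anti-apoptotic group, 3 genes were tested in MI vs. Sham and 0 were called (limma, 2 at an unadjusted p under 0.05), with a median log2 change of 0.70. Bcl2l2, which encodes BCL-W, is named here after its values were seen. It was 9.62 ± 2.13 FPKM in group Sham, 16.4 ± 4.23 in MI rats and 17.8 ± 2.03 in treated rats. Its log2 change was 0.70 in MI vs. Sham (limma, adjusted p = 0.0514) and 0.84 in treated rats vs. Sham (limma, adjusted p = 0.0172). Between treated and MI rats it was 0.14 (limma, adjusted p = 0.812).

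Of the 8 BH3-only genes tested in MI vs. Sham, 2 were called higher and 0 lower, beside 19.5% of all genes in each direction. Bmf, which binds and neutralises anti-apoptotic BCL2 proteins, measured 1.1, 0.935 and 1.31 FPKM in group Sham, 6.21, 8.10 and 6.58 in MI rats and 3.37, 4.30 and 6.58 in treated rats. All MI and treated rats were above all Sham rats, and Bmf rose by 1.91 ± 0.18 (limma, adjusted p = 0.00104). Bcl2l11, the gene of BIM, measured 2.27, 2.33 and 2.72 FPKM in group Sham, 4.21, 4.47 and 4.67 in MI rats and 2.71, 3.00 and 3.80 in treated rats. It rose by 0.67 in MI vs. Sham (limma, adjusted p = 0.0166), and its treated rats lay between the other groups but for 1 value in the Sham range.

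Of 7 genes of the apoptosome and of mitochondrial release, 2 were called higher in MI vs. Sham, Apaf1 and Diablo. Of all genes, 19.5% were called higher. Diablo, whose product SMAC leaves the mitochondrion and blocks inhibitors of apoptosis proteins, rose from 16.6 ± 2.71 to 25.1 ± 0.679 FPKM (log2 change 0.58, limma, adjusted p = 0.0232). Cycs, the gene of cytochrome c, measured 68.7, 77.2 and 83.3 FPKM in group Sham, 88.0, 59.5 and 139 in MI rats and 210, 209 and 115 in treated rats. The treated rats lay above the Sham rats and overlapped with the MI rats. Its change was 0.24 in MI vs. Sham (limma, adjusted p = 0.552) and 1.16 in treated rats vs. Sham (limma, adjusted p = 0.0153). Against MI rats it was 0.92 (limma, unadjusted p = 0.042, adjusted p = 0.558). Within the treated group, the rat with the lowest Cycs also had the lowest cardiomyocyte marker sum, 8501 against 16063 and 17824, and the part of that in the level was not tested.

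Of the caspases of later or other steps, 1 of the 4 genes tested was called in MI vs. Sham. Casp2, a caspase of stress responses, fell from 12.7 ± 0.376 to 8.62 ± 0.905 FPKM, by 0.51 (limma, adjusted p = 0.0266).

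The death receptor group held calls in both directions, 2 higher and 4 lower of 12 tested, beside 19.5% of all genes in each direction. Tnfrsf1a, the broadly expressed TNF receptor, rose from 33.0 ± 5.86 to 83.9 ± 16.8 FPKM (log2 change 1.32, limma, adjusted p = 0.00342). Tnfrsf21, death receptor 6, rose by 1.12 (limma, adjusted p = 0.0174). Tnfrsf25, death receptor 3, known from T cells, fell by 1.77 from 29.4 ± 12.0 to 7.47 ± 1.44 FPKM (limma, adjusted p = 0.0052). The other 2 called lower beside Casp8, named after their values were seen, were Fas and Ripk1, by 0.92 and 0.60 (limma, adjusted p = 0.0226 and 0.0301). Tnfrsf1a and Tnfrsf25 were called in the same directions in treated rats vs. Sham, at 1.03 and -2.13 (limma, adjusted p = 0.0101 and 0.00467).

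Of the 5 inhibitors of apoptosis genes tested, Birc2 (cIAP1, a ubiquitin ligase of TNF signalling) was called, lower by 0.42 in MI vs. Sham (limma, adjusted p = 0.0403). In the p53 group, 1 of 7 was called higher and 2 lower, beside 19.5% of all genes in each direction. Zmat3, a p53 target that binds RNA, rose from 0.351 ± 0.304 to 3.15 ± 0.449 FPKM by 1.64 (limma, adjusted p = 0.00324). Mdm2, the ubiquitin ligase that degrades p53, fell from 22.6 ± 3.65 to 12.0 ± 0.816 FPKM by 0.85 (limma, adjusted p = 0.00684). Sesn2, a stress-response target of p53, fell by 0.75 (limma, adjusted p = 0.0183). The group listed under substrates of executioner caspases also holds Dffb, which is the nuclease that cuts DNA between nucleosomes rather than a substrate. Of the 4 genes of that group tested, only Dffb was called, lower by 0.65 (limma, adjusted p = 0.0274). In treated rats vs. Sham, 11 of 52 genes of the list were called higher and 10 lower, against 14.5% and 14.1% of all genes tested. In treated vs. MI rats 0 of 53 were called (limma, 0 by limma voom), and 5 were higher and 2 lower at an unadjusted p under 0.05, against 4.59% and 3.9% of all genes. The list was not tested against all genes, and nothing particular to it is read from these counts.

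**Figure D5:**
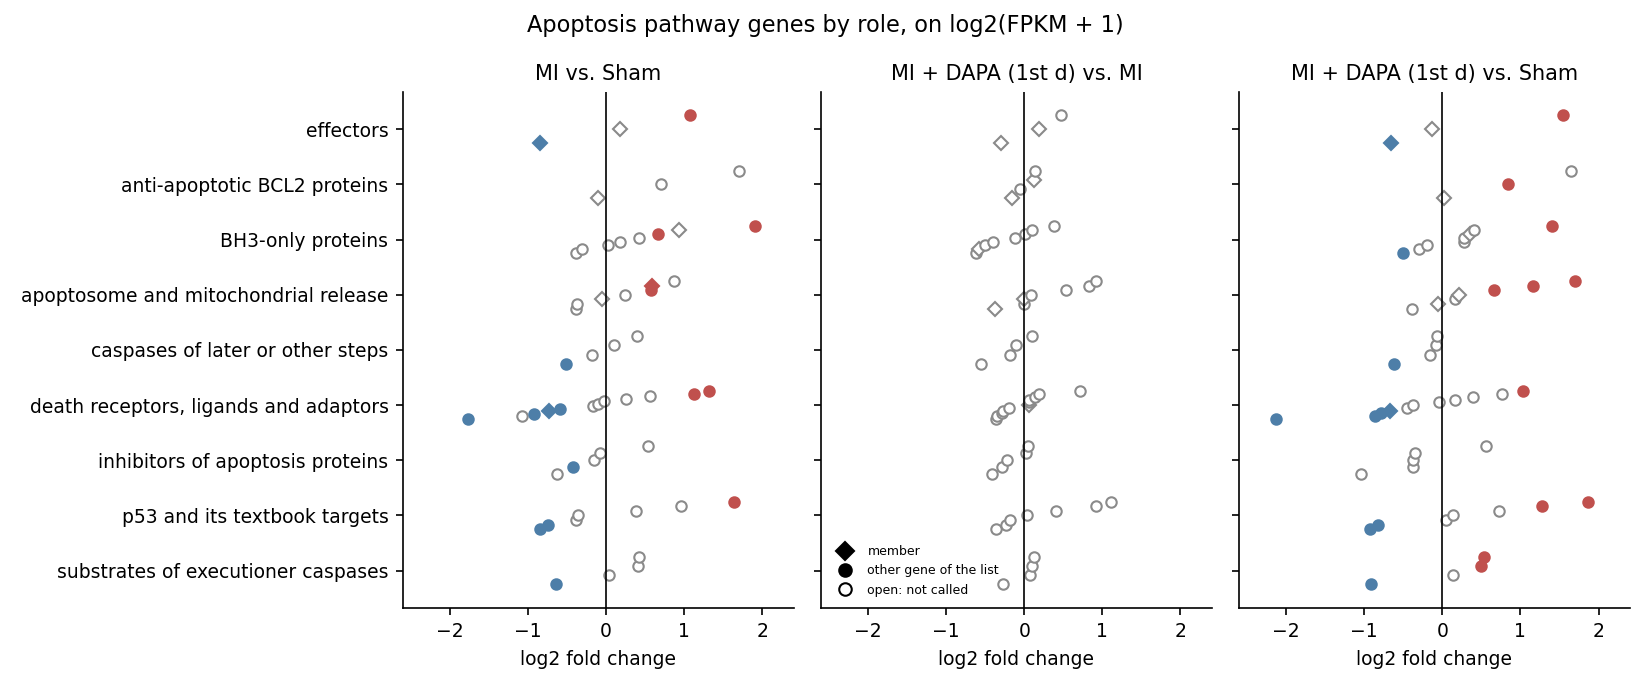
Log2 fold change of each tested gene of the apoptosis list on log2(FPKM + 1) (x axis) by role (y axis) in the 3 comparisons, with members as diamonds and genes called at an adjusted p under 0.05 filled (red higher, blue lower). MI vs. Sham has 8 red and 10 blue points, MI + DAPA (1st d) vs. Sham 11 and 10, and MI + DAPA (1st d) vs. MI none.

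The genes whose profiles over the 9 rats were most like those of Bax and Bcl2 were sought among 14157 genes, by the root mean square difference of mean-centred log2(FPKM + 1). For Bax they were Pold1 (0.0863), Man2c1 (0.102) and Ap4b1 (0.107), with Pold1 at mean FPKM of 6.35 in group Sham, 3.30 in MI rats and 3.57 in treated rats. For Bcl2 they were Cbl (0.0757), B3galt6 (0.0777) and Rbm15b (0.0875), with Cbl at 0.506, 1.69 and 1.33 FPKM. The likeness is a description over rats that share 3 groups.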

How the data were processed

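Poly-A selected paired-end libraries were made by the authors from 3 rats per group, 9 columns in all, each mapped to its group and number by its name, with 0 columns left out. Each label lists a pair of tags per rat whose meaning is not given. The authors deposited FPKM, already divided by gene length and a library denominator. The submitters' processing notes name HISAT2 2.0.5, StringTie 1.3.3b, featureCounts 1.5.0-p3 and DESeq2. The genome build is not given in the sources used here, so no coordinates are printed, and whether counting used strand is not given either.

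limma 3.58.1 in R 4.3.3 was run on log2(FPKM + 1) of genes that reached 1 FPKM in 3 or more of the 6 rats of a comparison, with a trended prior variance, no covariate and Benjamini-Hochberg adjustment over all genes tested, called at 0.05. Fold changes on this scale understate those of low genes. The FPKM steps gave back whole reads for 18896 of 18896 genes with values in 4 or more libraries, but not for 4359 genes with values in fewer. The Bax to Bcl2 ratio was compared by two-sided exact permutation over rats, whose smallest p is 0.1. The recovery of reads and the fits were tested on simulated data. Plots used Python 3.11.15 and matplotlib 3.10.9.

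Genes named were the members, Cycs, in each role group the 3 non-members with the smallest p among those called in MI vs. Sham, and the 3 profiles nearest to Bax and to Bcl2. One more gene of that rule is not reported here. Others are said to be chosen later. The members and lists were chosen with earlier results of these data known. Alternatives were another pseudocount, filter, scaling, fit or call rule, the replicate block, and each rat left out in turn.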

Additional observations from a re-analysis of the deposited data

How the results depend on the processing

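All 3 Bax to Bcl2 differences kept their direction under all 9 alternatives run for each, with exact permutation p from 0.1 to 0.25 against group Sham and from 0.2 to 0.5 for treated against MI rats. Matching same-numbered rats cannot give less than 0.25. Most of these alternatives could not turn the direction. The ratio of reads and the matching of same-numbered rats leave the mean difference as it was. Against group Sham, where the rats did not overlap, leaving out any rat cannot reverse it. With no filter on low values, 0 members were called higher and 1 lower in MI vs. Sham and 1 lower in treated rats vs. Sham, where more genes share the adjustment. In that setting 2275 of all 22573 genes were called higher and 2152 lower in MI vs. Sham, and 1364 of 21975 lower in treated rats vs. Sham. With mitochondrial genome genes left out before rescaling, 0 members were called higher in MI vs. Sham, and Bcl2l1 in treated rats vs. Sham became -0.10. Of all 13477 genes there, 2248 were called higher and 3102 lower in MI vs. Sham. Scaled to all recovered reads, 6 members were called higher and 0 lower in MI vs. Sham and 4 and 0 in treated rats vs. Sham. Of the pathway list 39 and 0, and 30 and 1, were called. Of all genes, 9039 of 13534 were called higher and 520 lower in MI vs. Sham. In treated rats vs. Sham 7125 of 13050 were called higher and 429 lower. Beside these, the counts are no result about the members or the list. On that scale the log2 changes that reversed in MI vs. Sham were Bax 0.23, Bcl2l1 0.94, Casp8 0.23 and Casp9 0.82. In treated rats vs. Sham they were Bax 0.20, Bak1 0.69, Casp8 0.095 and Casp9 0.63, and in treated vs. MI rats Bax -0.027, Bcl2l1 -0.094 and Casp8 -0.13. Under an unadjusted p under 0.05 with an absolute log2 fold change over 1, 0 members were called higher and 0 lower in MI vs. Sham and 0 lower in treated rats vs. Sham. By that rule 2 pathway genes were lower in MI vs. Sham and 2 lower in treated rats vs. Sham. Higher in MI vs. Sham were Bok, Bcl2a1, Bmf, Tnfrsf1a, Tnfrsf21 and Zmat3. Higher in treated rats vs. Sham were Bok, Bcl2a1, Bmf, Cycs, Endog, Tnfrsf1a, Gadd45a and Zmat3. In treated vs. MI rats 1 was higher. Of all 13485 genes, 1634 were higher and 1390 lower in MI vs. Sham. The counts were 1274 and 1090 of 13359 in treated rats vs. Sham, and 126 and 147 of 13251 in treated vs. MI rats. With the unadjusted p alone, 2 members were higher and 2 lower in MI vs. Sham. Of the 27 pathway genes under that threshold, 14 were higher and the rest lower, beside 3310 and 3295 of all 13485 genes. In treated vs. MI rats 5 pathway genes were higher and 2 lower, beside 608 and 517 of all 13251 genes.

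Same-numbered rats did not deviate together (correlations from -0.304 to 0.195), so the numbers were not taken as pairing the rats. With the replicate block, 1 member was called lower in treated rats vs. Sham, Casp8 being lost at an adjusted p (limma) of 0.061, and in MI vs. Sham Apaf1 was lost at 0.0791 and Bid called at 0.0193. Leaving out each rat in turn, members called in MI vs. Sham were 0 higher in every fit and 1 to 2 lower, and pathway genes 4 to 9 higher and 3 to 8 lower. In treated rats vs. Sham, members were 0 to 2 lower and pathway genes 6 to 11 higher and 2 to 7 lower. Of all 12912 to 12968 genes in these fits of MI vs. Sham, 1530 to 2357 were called higher and 1676 to 2114 lower. In treated rats vs. Sham, 867 to 1632 were called higher and 935 to 1577 lower, of 12879 to 12909. Beside these, the counts are no result about the members or the list. Changes that were not called turned sign in such fits, in MI vs. Sham over -0.30 to 0.049 for Bcl2l1 and -0.13 to 0.044 for Casp9. In treated vs. MI rats they ran over -0.057 to 0.32 for Bcl2l1, -0.085 to 0.24 for Casp8 and -0.064 to 0.045 for Casp9. In treated rats vs. Sham they ran over -0.31 to 0.061 for Bak1, -0.16 to 0.22 for Bcl2l1 and -0.13 to 0.042 for Casp9. The cause of these changes was not tested. Depth limited Bcl2 most, at 7 to 12 reads in the Sham rats.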

Other observations

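Some pathway genes outside the named set differed between treated and MI rats at an unadjusted p only, and were chosen after their values were seen. Perp, a p53 target of cell junctions, measured 2.59, 2.65 and 6.47 FPKM in group MI and 9.45, 11.1 and 6.77 in the rats treated with DAPA, with no overlap (log2 change 1.11 ± 0.32, limma, unadjusted p = 0.0116, adjusted p = 0.558). Endog, the nuclease endonuclease G of the mitochondrion, measured 9.48, 5.64 and 14.4 FPKM in group MI and 17.8, 18.8 and 15 in treated rats, again without overlap (limma, unadjusted p = 0.0283, adjusted p = 0.558). Gadd45a, a stress gene that p53 induces, was 32.4 ± 15.2 FPKM in group MI and 59.2 ± 17.7 in treated rats and overlapped (limma, unadjusted p = 0.0395, adjusted p = 0.558). For Perp, Endog and Gadd45a, MI replicate 2 or 1 held the lowest MI value. Bcl2l11, lower in every treated rat than in every MI rat, had an unadjusted p of 0.0386 (limma, adjusted p = 0.558).

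Within each rat, the Casp8 to Casp9 ratio was 2.11, 2.12 and 2.12 in group Sham. It was 0.974 to 1.62 in group MI and 0.959 to 1.54 in treated rats, below every Sham rat. The Apaf1 to Casp9 ratio was 0.508 to 0.586 in group Sham and 0.858 to 1.23 in group MI, and the treated rats, at 0.560, 0.591 and 1.05, spanned both. These ratios are free of library scaling, were chosen after the values were seen and were not tested.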
